A study of Arabidopsis thaliana with 6 samples.

Results

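The breakdown of lysine and of the branched-chain amino acids leucine, isoleucine and valine was followed through 10 Arabidopsis genes, which were chosen by their AGI locus with their change in this comparison already known. They were read from Affymetrix ATH1 arrays hybridised with rosette RNA of 3 replicates under water deficit and 3 watered replicates. Of the 10 genes, 7 were paired with a probe set in the annotation used here, and these are the genes described by values. They are among 13286 genes paired with a probe set of the array. The whole table holds 22746 probe sets other than controls, of which 13703 were tested. In the water deficit group, water was withheld from 4 week old wild-type (Col-0) plants until the rosettes had reached 65% relative water content, a state of wilting. The watered group was 4 week old plants of the same line that continued to be watered. The groups differed in the supply of water alone as far as the labels state, and nothing in them says how many plants went into a replicate. In the setting used in the text, the p-values therefore measure the spread between these 3 samples per group. Rosettes hold several cell types, and in such bulk samples fewer cells of a type and less RNA per cell cannot be told apart.

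Lysine is degraded in plants mainly by the saccharopine pathway. The bifunctional enzyme LKR/SDH joins lysine to 2-oxoglutarate and then splits the product, saccharopine, into glutamate and aminoadipic semialdehyde, which an aldehyde dehydrogenase oxidises. The branched-chain amino acids lose their amino group to a transaminase. The resulting oxo acids are decarboxylated by the mitochondrial branched-chain dehydrogenase complex, and the acyl-CoA products are oxidised further. The flavin enzymes of both routes can pass electrons through the electron transfer flavoprotein (ETF) and its oxidoreductase (ETFQO) to ubiquinone of the respiratory chain. In plants these pathways are known for their use when carbohydrates run short, as in extended darkness.

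The arrays were not equally bright. The mean deposited intensity was 96.8, 261 and 223 on water deficit arrays 1, 2 and 3, and 79.4, 214 and 155 on watered arrays 1, 2 and 3, so that replicate 1 was the dimmest array of each group. Intensities were quantile normalised, raised to a detection floor of 4.21 on the log2 scale and compared as log2 values. The floor is the highest level that Bacillus control probe sets reached. With limma's adjusted p under 0.05, the threshold used throughout, 21.8% of the probe sets tested passed as higher under water deficit and 23% as lower. The median log2 fold change over all of them was 0.04. For 28.4% of the probe sets tested, all 3 water deficit arrays lay above all 3 watered arrays. Levels of different probe sets are not comparable, so genes are set beside each other only by their changes.

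Of the 7 measured genes, 5 passed the threshold with a higher level under water deficit (background 21.8%), 0 by limma with a lower level (background 23%, and 0 at an unadjusted p under 0.05), and 2 did not pass. In the same 5 genes the water deficit arrays did not overlap with the watered arrays (background 28.4%). The median log2 fold change of the 7 genes was 1.97. Because these genes were selected on this contrast, the counts and the median are a description and no test is given for them. The 2 largest changes belonged to LKR/SDH and to the aldehyde dehydrogenase ALDH7B4, both of lysine breakdown. Intermediate ones belonged to isovaleryl-CoA dehydrogenase and D-2-hydroxyglutarate dehydrogenase, and the smallest to 1 subunit of methylcrotonyl-CoA carboxylase and to ETFQO. By the change, these genes stood at ranks 15, 132, 570, 610, 2237, 5028 and 6248 among the 13703 probe sets tested.

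**Figure D1:**
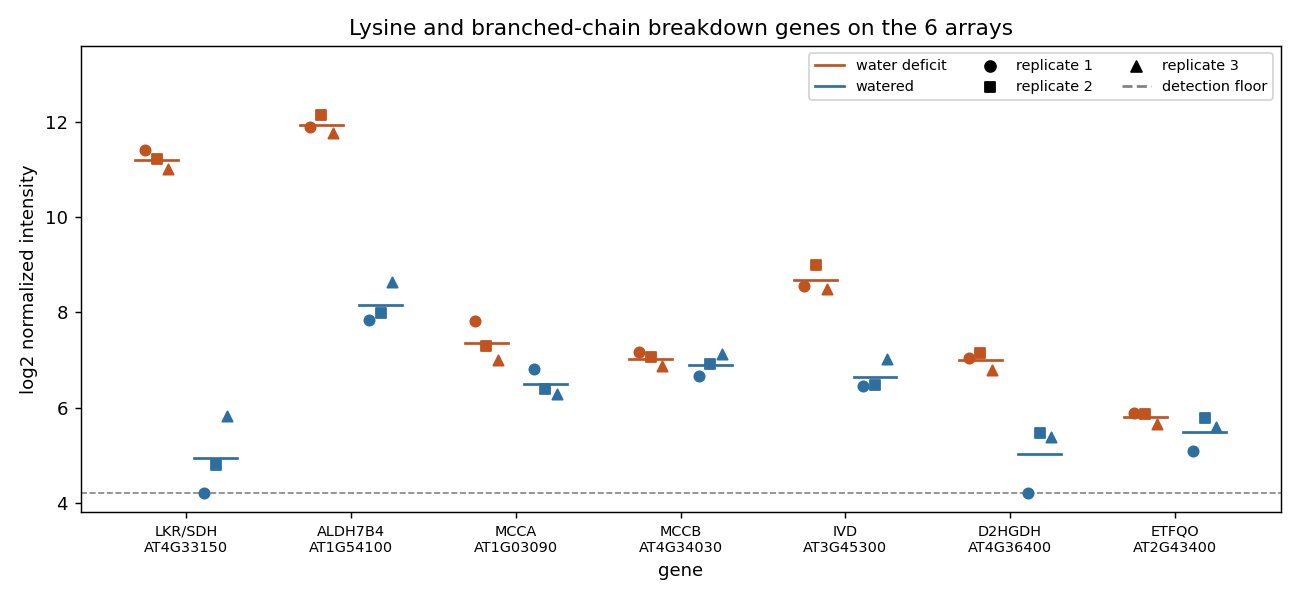
Log2 normalised intensity (y axis) of the 7 measured genes on each of the 6 arrays, with water deficit left of watered for each gene. Symbols mark the replicate number, horizontal bars the group means (n = 3) and the dashed line the detection floor of 4.21. The groups are far apart for LKR/SDH and ALDH7B4 and overlap for MCCB and ETFQO.

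LKR/SDH (AT4G33150), which carries out the opening steps of the saccharopine pathway, had log2 intensities of 11.41, 11.21 and 11.01 on water deficit arrays 1, 2 and 3, and of 4.21, 4.78 and 5.82 on watered arrays 1, 2 and 3. All water deficit values were high and close together, while the watered values lay at the floor on array 1 and not far above it on the others. The deposited intensities were 1586, 3485 and 2554 units under water deficit and 5.43, 32.3 and 50.2 units in watered plants. The log2 fold change was 6.27 ± 0.38 (SE, n = 3 each). In the setting used here this amounts to 77.3-fold, with the floor standing in for the signal of watered array 1. It is no lower bound, since the log2 fold change was 5.77 on the 4 brighter arrays (replicates 2 and 3). Only 0.102% of the probe sets tested had a higher fold change.

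ALDH7B4 (AT1G54100), the aldehyde dehydrogenase that oxidises aminoadipic semialdehyde, had log2 intensities of 11.90, 12.15 and 11.78 on water deficit arrays 1, 2 and 3, and of 7.85, 7.99 and 8.64 on watered arrays 1, 2 and 3. Unlike that of LKR/SDH, its transcript was well above the floor on every watered array. The group means were 11.94 ± 0.19 under water deficit and 8.16 ± 0.42 in watered plants (SD, n = 3 each), with a log2 fold change of 3.78 ± 0.25 (SE), or 13.8-fold. The change of LKR/SDH was larger than that of ALDH7B4 within each replicate number, by 3.16, 2.27 and 2.05 log2 units for replicates 1, 2 and 3.

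The first reactions of branched-chain breakdown could not be followed among these genes. The branched-chain aminotransferase BCAT-2 (AT1G10070) was not paired with a probe set in the annotation used here and has no value. The same holds for the E1 beta subunit DIN4 (AT3G13450) and the E2 subunit BCE2 (AT3G06850), both of the branched-chain dehydrogenase complex.

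In the leucine branch, isovaleryl-CoA dehydrogenase (IVD, AT3G45300) forms methylcrotonyl-CoA and delivers electrons to ETF. Its log2 intensities were 8.55, 8.998 and 8.49 on water deficit arrays 1, 2 and 3, and 6.45, 6.47 and 7.01 on watered arrays 1, 2 and 3. The groups were separate, with water deficit array 2 the highest of all. The log2 fold change was 2.04 ± 0.23 (SE, n = 3 each), or 4.10-fold, and 4.15% of the probe sets tested had a higher one.

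Methylcrotonyl-CoA carboxylase, the biotin-dependent enzyme that follows in leucine breakdown, is built of an alpha subunit that carries the biotin and a beta subunit that transfers the carboxyl group. The alpha subunit gene MCCA (AT1G03090) had log2 intensities of 7.82, 7.29 and 6.99 on water deficit arrays 1, 2 and 3, and of 6.81, 6.39 and 6.30 on watered arrays 1, 2 and 3. The groups did not overlap, but the lowest water deficit value was only 0.18 log2 units above the highest watered one. Its log2 fold change was 0.87 ± 0.26 (SE, n = 3 each), or 1.82-fold, and 16.3% of the probe sets tested had a higher one. MCCA is the 1 member that fell short of the threshold when any single array of water deficit replicates 1 and 2 or watered replicates 2 and 3 was left out. It also fell short under spike-in scaling (1.39 ± 0.65, SE) and under no scaling (1.44 ± 0.71, SE), at a larger change with a larger SE. Within each of these scalings limma gave every gene named here the same SE. There, the SE and the p-values do not measure the spread of the single gene. The call for MCCA was also lost, at an unchanged log2 fold change, with the floor at the 25th percentile and with no filter on dim probe sets.

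The beta subunit gene MCCB (AT4G34030) had log2 intensities of 7.17, 7.05 and 6.87 on water deficit arrays 1, 2 and 3, and of 6.66, 6.92 and 7.13 on watered arrays 1, 2 and 3. The groups overlapped, and in replicate 3 the watered array was the higher one. The log2 fold change was 0.13 ± 0.19 (SE, n = 3 each), or 1.09-fold, and 45.6% of the probe sets tested had a higher one. The change of MCCA exceeded that of MCCB by 0.50, 0.76 and 0.95 log2 units within replicates 1, 2 and 3, with a mean of 0.74. MCCA thus had the larger change of the subunits in each pair of arrays, a difference that was not tested.

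D-2-hydroxyglutarate dehydrogenase (D2HGDH, AT4G36400) oxidises D-2-hydroxyglutarate, a product of lysine breakdown in plants, and passes the electrons to ETF. It had log2 intensities of 7.05, 7.15 and 6.79 on water deficit arrays 1, 2 and 3, and of 4.21, 5.48 and 5.39 on watered arrays 1, 2 and 3, where array 1 was at the floor. The groups were separate by more than 1 log2 unit. The log2 fold change was 1.97 ± 0.34 (SE, n = 3 each), or 3.92-fold with the floor standing in for watered array 1. On the 4 brighter arrays (replicates 2 and 3) it was 1.55.

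ETFQO (AT2G43400), the membrane enzyme that hands electrons from ETF to ubiquinone, had log2 intensities of 5.89, 5.86 and 5.67 on water deficit arrays 1, 2 and 3, and of 5.10, 5.79 and 5.59 on watered arrays 1, 2 and 3. Apart from watered array 1 the values of both groups lay close together, and the groups overlapped. The log2 fold change was 0.32 ± 0.22 (SE, n = 3 each), or 1.24-fold, and 36.7% of the probe sets tested had a higher one.

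The labels do not state what a shared replicate number means. The numbers were taken to pair the arrays, as described under the processing, and the difference within a number was read for each gene. Of the 7 genes, 6 were higher under water deficit in all 3 pairs, and MCCB was the exception, with differences of 0.51, 0.14 and -0.26 log2 units in replicates 1, 2 and 3. The share over all probe sets tested was not taken for this count. The genes were selected on this contrast, so the count is a description only. The difference was 7.20, 6.43 and 5.18 for LKR/SDH, and 4.05, 4.16 and 3.13 for ALDH7B4. In each pair LKR/SDH had the largest difference, ALDH7B4 the next and MCCA the fifth, whereas IVD and D2HGDH exchanged places between pairs, as did MCCB and ETFQO. The pair of replicate 3 had the lowest signed difference (water deficit minus watered) for 7 of the 7 genes, by a narrow margin for ETFQO. The share over all probe sets tested was 32.1%, but these include falling ones, for which the lowest signed difference is the largest fall. Water deficit array 3 was the lowest of its group for 7 of the 7 genes, against 28.3% of all probe sets tested, which again include falling ones. The 7 genes were read on the same arrays and are not independent counts.

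**Figure D2:**
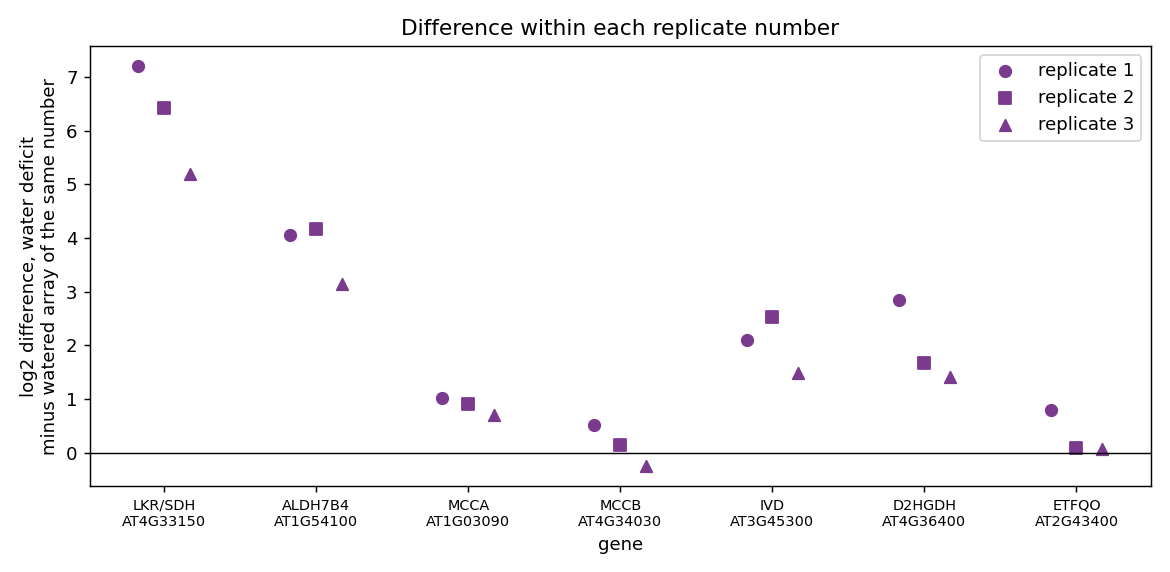
Difference in log2 normalised intensity between the water deficit and the watered array of the same replicate number (y axis) for the 7 measured genes. Each symbol is 1 pair of arrays, and the triangles of replicate 3 are the lowest symbol for every gene, below 0 for MCCB at -0.26.

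A list of 20 further genes of these pathways held 13 with a probe set and 11 that were tested. Of these 11 genes, 5 rose under water deficit (background 21.8%), 0 fell by limma (background 23%, and 1 at an unadjusted p under 0.05) and 6 did not pass the threshold, with a median log2 fold change of 0.73 beside 0.04 over all probe sets tested. For lysine, 1 of 3 tested genes rose, and for the branched-chain amino acids 4 of 8 tested genes rose. The list was written with earlier results of these data known, and the count is no independent evidence.

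The largest change in the list belonged to AT1G07040, which encodes the enzyme that makes D-2-hydroxyglutarate from 2-oxoadipate, the step before D2HGDH. Its log2 intensities were 9.91, 9.77 and 9.50 on water deficit arrays 1, 2 and 3, and 5.05, 6.59 and 7.29 on watered arrays 1, 2 and 3. The watered arrays were spread widely, and all were below the water deficit arrays. The transcript rose at a log2 fold change of 3.42 ± 0.50 (SE, n = 3 each, limma's adjusted p = 0.00118), or 10.7-fold. Without watered replicate 1 the log2 fold change was 2.77, more than 1.5 times lower on the linear scale, and the gene still passed (limma's adjusted p = 0.000313). The other tested lysine genes did not pass. They were AT5G52810, a reductase acting in pipecolate synthesis (log2 fold change 0.59 ± 0.41, limma's adjusted p = 0.268), and AT3G56840, annotated as an L-2-hydroxyglutarate dehydrogenase (-0.14, limma's adjusted p = 0.607). AT5G52810 passed without watered replicate 1, with a log2 fold change of 1.05 (limma's adjusted p = 0.0243).

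Both subunits of ETF, the electron carrier that IVD and D2HGDH feed, rose. ETFBETA (AT5G43430) had log2 intensities of 7.75, 7.82 and 7.77 on water deficit arrays 1, 2 and 3, and of 6.22, 6.51 and 6.29 on watered arrays 1, 2 and 3. These are narrow groups far apart, at a log2 fold change of 1.44 ± 0.17 (SE, n = 3 each, limma's adjusted p = 0.000388), or 2.71-fold. ETFALPHA (AT1G50940) had 7.08, 7.04 and 7.32 under water deficit and 5.97, 5.68 and 6.34 in watered plants, a log2 fold change of 1.15 ± 0.22 (SE, limma's adjusted p = 0.00368), or 2.22-fold. The change of ETFBETA exceeded that of ETFQO by 0.73, 1.23 and 1.40 log2 units in replicates 1, 2 and 3. The change of ETFALPHA exceeded that of ETFQO by 0.31, 1.29 and 0.91 log2 units. With spike-in scaling ETFALPHA no longer passed (1.68 ± 0.65, SE, limma's adjusted p = 0.067) and ETFBETA did (1.96 ± 0.65, SE, limma's adjusted p = 0.0246). With no scaling neither passed (limma's adjusted p = 0.115 for ETFALPHA and 0.0506 for ETFBETA). ETFQO thus had a smaller change than either ETF subunit in every pair, a difference that was not tested. Its values, 5.10 to 5.89, were also nearer to the floor of 4.21 than those of the subunits.

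Hydroxymethylglutaryl-CoA lyase (AT2G26800) closes leucine breakdown by releasing acetoacetate and acetyl-CoA. It had log2 intensities of 8.30, 8.47 and 8.22 on water deficit arrays 1, 2 and 3, and of 7.52, 7.49 and 7.24 on watered arrays 1, 2 and 3, and rose at a log2 fold change of 0.91 ± 0.18 (SE, n = 3 each, limma's adjusted p = 0.00433). The call was lost with spike-in scaling (1.43 ± 0.65, SE, limma's adjusted p = 0.141) and with no scaling (1.47 ± 0.71, SE, limma's adjusted p = 0.209). In these settings the change was larger, and so was the SE, which was the same for every gene named. In leucine breakdown, then, the log2 fold change was 2.04 for IVD, 0.87 for MCCA, 0.13 for MCCB and 0.91 for the lyase.

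In the valine branch, the 3-hydroxyisobutyrate dehydrogenase gene AT4G20930 rose at a log2 fold change of 0.89 ± 0.22 (SE, n = 3 each, limma's adjusted p = 0.014). The call was lost without watered replicate 2 (0.81, limma's adjusted p = 0.0582). With spike-in scaling (1.40 ± 0.65, SE, limma's adjusted p = 0.152) and with no scaling (1.44 ± 0.71, SE, limma's adjusted p = 0.222) it was lost at a larger change with a larger SE. The methylmalonate semialdehyde dehydrogenase gene ALDH6B2 (AT2G14170) had 8.19, 8.14 and 8.56 under water deficit and 6.71, 7.61 and 8.38 in watered plants. The watered arrays were so spread that the groups overlapped, and the log2 fold change of 0.73 ± 0.39 (SE) did not pass (limma's adjusted p = 0.16). It passed without watered replicate 3, at 1.14 (limma's adjusted p = 0.0215). AT4G16800, of the enoyl-CoA hydratase family, had a log2 fold change of -0.59 ± 0.23 (SE, limma's adjusted p = 0.0691), and passed without water deficit replicate 3, at -0.78 (limma's adjusted p = 0.0361). The E1 alpha gene AT5G09300 of the branched-chain dehydrogenase complex was near the floor in both groups, with a log2 fold change of -0.08 (limma's adjusted p = 0.794). AT4G31810, a member of the 3-hydroxyisobutyryl-CoA hydrolase family, had -0.25 (limma's adjusted p = 0.513). The related hydrolase genes AT2G30650 and AT2G30660 were not above the floor on enough arrays to be tested.

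**Figure D3:**
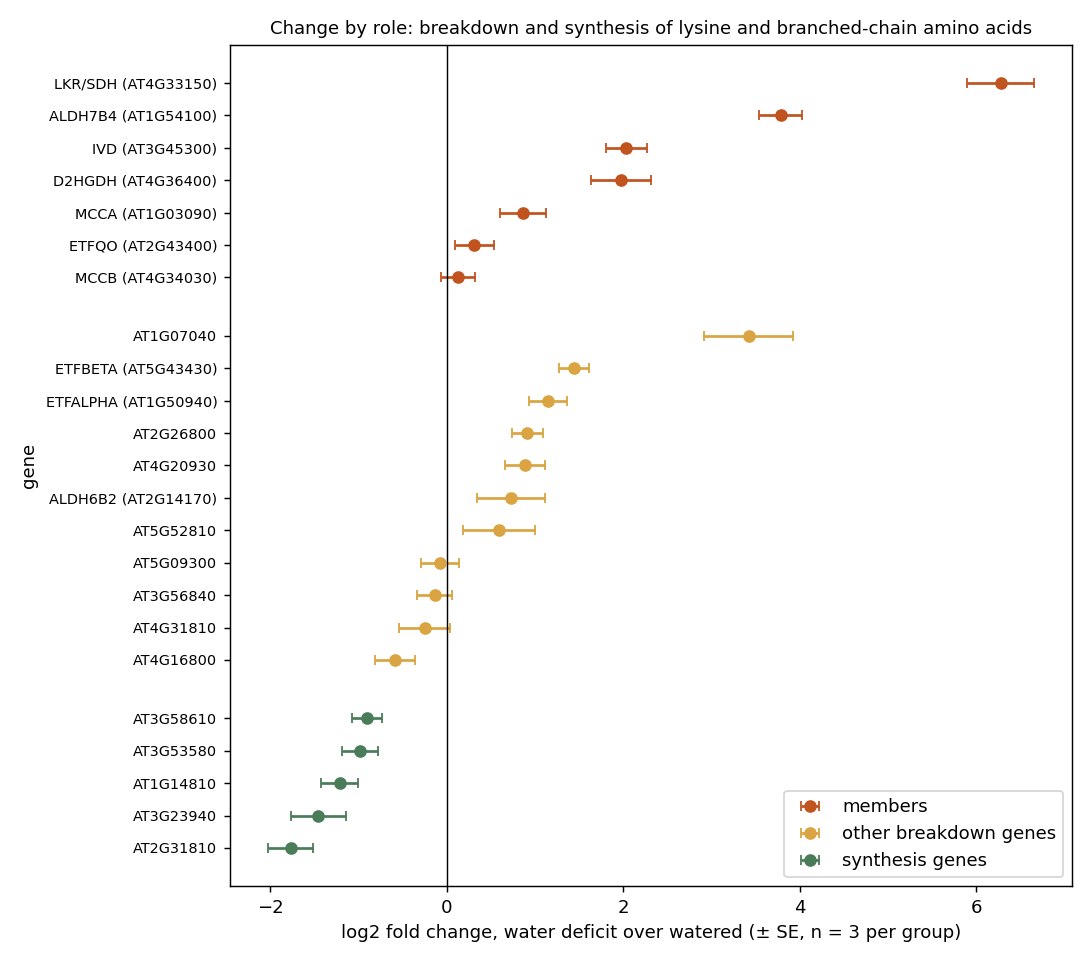
Log2 fold change, water deficit over watered (x axis), with its SE (bars, n = 3 per group), for the 7 measured genes (members), for the 11 other breakdown genes tested and for the 5 genes tested of lysine and branched-chain synthesis. No synthesis gene lies above 0, and LKR/SDH has the highest value at 6.27.

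Genes for the synthesis of the same amino acids in the plastid ran the other way. Of 26 listed genes 5 were paired and tested, and the 5 fell (background 23%), with a median log2 fold change of -1.21. This list too was written with earlier results of these data known, and the count is no independent evidence. The regulatory subunit of acetolactate synthase, the committed enzyme of branched-chain synthesis (AT2G31810), had log2 intensities of 7.27, 7.06 and 6.87 on water deficit arrays 1, 2 and 3, and of 8.98, 9.18 and 8.34 on watered arrays 1, 2 and 3. Its groups were separate, and the log2 fold change was -1.77 ± 0.25 (SE, n = 3 each, limma's adjusted p = 0.00103). The next enzymes of that pathway also fell, with -0.90 ± 0.17 for the ketol-acid reductoisomerase AT3G58610 (SE, limma's adjusted p = 0.00385) and -1.45 ± 0.31 for the dihydroxyacid dehydratase AT3G23940 (SE, limma's adjusted p = 0.00685). On the lysine side, aspartate-semialdehyde dehydrogenase (AT1G14810) fell by 1.21 ± 0.21 on the log2 scale (SE, limma's adjusted p = 0.00246) and diaminopimelate epimerase (AT3G53580) by 0.98 ± 0.20 (SE, limma's adjusted p = 0.00557). These 5 calls depended on the scaling. With spike-in scaling or with none, where the median log2 fold change of all tested probe sets was 0.48 and 0.51, all 5 remained below 0 and 0 of them passed limma's adjusted threshold. At an unadjusted p under 0.05, 1 was lower with spike-in scaling and 0 with none.

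Of the other branched-chain aminotransferases, 2 were tested and 0 passed by limma, also at an unadjusted p under 0.05. BCAT4 (AT3G19710), which acts in glucosinolate synthesis from methionine, had a log2 fold change of 0.05, and AT5G65780 (BCAT-5) had 0.02. The transcript of AT1G50110 was at the floor on all 6 arrays. Among 13 listed aldehyde dehydrogenases other than ALDH7B4, 7 were tested and 0 passed by limma (background 21.8% higher and 23% lower), with a median log2 fold change of 0.12. ALDH6B2, counted above among the branched-chain breakdown genes, is 1 of these 7. At an unadjusted p under 0.05, 2 of the 7 were higher and 2 lower. With the replicate number as a block, 1 of them was higher, AT3G48170 (0.90, limma's adjusted p = 0.0213), and 1 was lower, AT3G66658 (-0.61, limma's adjusted p = 0.0291). AT3G48170 also passed without watered replicate 3 (1.22, limma's adjusted p = 0.0305) and AT3G66658 without water deficit replicate 1 (-0.81, limma's adjusted p = 0.0299). AT1G74920 (0.42) passed with no filter (limma's adjusted p = 0.0136) and with a trend of the spread on level (limma's adjusted p = 0.0334).

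The pyruvate and 2-oxoglutarate dehydrogenase complexes, which have the same architecture as the branched-chain complex, held 8 tested genes with a median log2 fold change of -0.19, of which 1 was higher (background 21.8%) and 1 lower (background 23%). Of these, the E2 gene AT5G55070 of the 2-oxoglutarate complex was higher (0.67 ± 0.19, SE, limma's adjusted p = 0.0222) and the E2 gene AT3G13930 of the pyruvate complex was lower (-0.61 ± 0.17, SE, limma's adjusted p = 0.0217). Both calls were lost under spike-in scaling and under no scaling, and when certain single arrays were left out. In these 2 scalings the log2 fold change was 1.19 and 1.23 for AT5G55070, and -0.09 and -0.05 for AT3G13930. AT5G55070 no longer passed without water deficit replicate 2 (0.62), water deficit replicate 3 (0.65) or watered replicate 2 (0.57). AT3G13930 no longer passed without water deficit replicate 2 (-0.54), water deficit replicate 3 (-0.64), watered replicate 1 (-0.55) or watered replicate 2 (-0.66). The E1 gene AT5G65750 of the 2-oxoglutarate complex did not pass (0.997, limma's adjusted p = 0.0699). It passed as higher with the replicate number as a block (limma's adjusted p = 0.00582), without water deficit replicate 1 (1.31, limma's adjusted p = 0.0391), without watered replicate 3 (1.28, limma's adjusted p = 0.0368) and on the 4 brighter arrays (limma's adjusted p = 0.0258).

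In a list of 28 genes for the breakdown of other amino acids, 4 were tested, 2 rose (background 21.8%) and 0 fell by limma (background 23%, and 0 at an unadjusted p under 0.05). The methionine gamma-lyase gene MGL (AT1G64660), whose product 2-oxobutanoate is a precursor of isoleucine, had log2 intensities of 10.21, 10.28 and 10.34 on water deficit arrays 1, 2 and 3, and of 6.01, 5.998 and 7.0 on watered arrays 1, 2 and 3. It rose at a log2 fold change of 3.94 ± 0.28 (SE, n = 3 each, limma's adjusted p = 4.3e-05), or 15.3-fold, close to the 13.8-fold of ALDH7B4. Ornithine aminotransferase (DELTA-OAT, AT5G46180), of arginine breakdown, rose by 2.16 ± 0.20 log2 units (SE, limma's adjusted p = 0.000137). The proline dehydrogenase gene AT5G38710 had -0.57 (limma's adjusted p = 0.151), and passed with the replicate number as a block (limma's adjusted p = 0.03). The multifunctional protein AIM1 (AT4G29010), the 1 tested gene of 10 listed for peroxisomal beta-oxidation, rose at a log2 fold change of 1.36 ± 0.20 (SE, limma's adjusted p = 0.00104). This call was lost with spike-in scaling (1.75, limma's adjusted p = 0.0524) and with no scaling (1.80, limma's adjusted p = 0.0939). Of 11 genes listed for darkness and sugar starvation, regulators among them, the 1 tested was the transcription factor gene BZIP53 (AT3G62420), with -0.06 (limma's adjusted p = 0.801).

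Few markers of the tissue could be read. Of 9 leaf genes the photorespiratory hydroxypyruvate reductase HPR (AT1G68010) was the 1 paired. Its log2 intensities of 11.37, 11.21 and 10.86 on water deficit arrays 1, 2 and 3 and 12.20, 12.11 and 11.74 on watered arrays 1, 2 and 3 were high throughout and fell by 0.87 ± 0.21 (SE, limma's adjusted p = 0.0126). Of 5 root genes, EXPA7 was at the floor on all 6 arrays. The root and hypocotyl beta-glucosidase PYK10 (AT3G09260) was detected on every array, at 8.84, 9.08 and 10.25 on water deficit arrays 1, 2 and 3 and at 7.97, 8.68 and 9.75 on watered arrays 1, 2 and 3. Its log2 fold change was 0.59 ± 0.51 (SE, limma's adjusted p = 0.369, or 0.0316 with the replicate number as a block). The part of PYK10-bearing tissue in the results was not tested. Flower, seed, senescence and dehydration markers, and the listed genes of proline synthesis and biotin metabolism, had no paired probe set in the annotation used here.

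The mean of the 7 genes' log2 values was 8.54, 8.53 and 8.23 on water deficit arrays 1, 2 and 3, and 5.90, 6.26 and 6.56 on watered arrays 1, 2 and 3. Among 5582 other genes detected on all 6 arrays, those that followed this mean most closely were AT1G69360 (Pearson r over the 6 arrays 0.9987), AT3G15290 (0.9984), the aminopeptidase gene APM1 (AT4G33090, 0.9982), AT5G39590 (0.9981) and AT3G21670 (0.9979), a member of the NRT1/PTR transporter family. Their log2 fold changes were 2.17, 0.94, 1.41, 1.86 and 1.20. A correlation of this kind is common here, since the arrays fall into 2 groups and 407 of the 5582 genes had r above 0.95.

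On the chromosomes, 4 of the 14 genes next to the 7 measured ones were themselves tested. NET1D (AT1G03080), beside MCCA, was higher under water deficit (1.48 ± 0.27, SE, limma's adjusted p = 0.00343). AT4G36390, beside D2HGDH, was lower (-0.70 ± 0.16, SE, limma's adjusted p = 0.00947). AT1G54110, beside ALDH7B4, had a log2 fold change of -0.10 and AT3G45310, beside IVD, had -0.01, and neither passed.

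**Figure D4:**
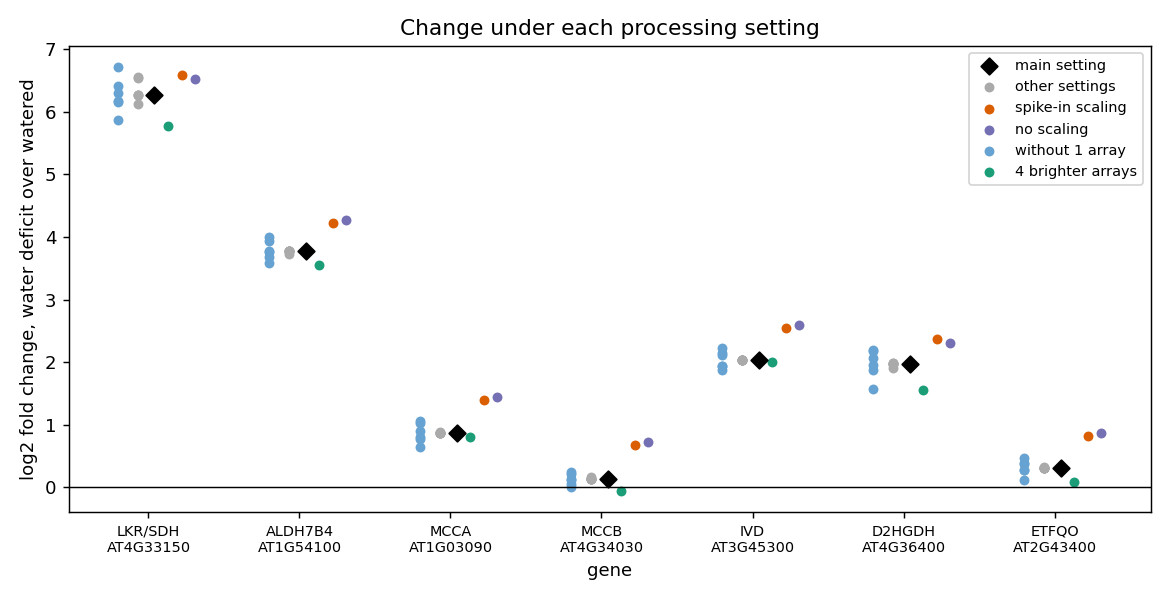
Log2 fold change, water deficit over watered (y axis), of the 7 measured genes under the setting used in the text (diamonds), with 1 array left out, on the 4 brighter arrays, scaled to the spike-in controls, unscaled, and under the remaining settings. LKR/SDH stays between 5.77 and 6.71, and MCCB lies between -0.06 and 0.72.

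The size of the changes depended on the setting by less than the differences between the genes at the ends of the order. Over all settings tried the log2 fold change was 5.77 to 6.71 for LKR/SDH, 3.56 to 4.27 for ALDH7B4, 1.88 to 2.59 for IVD, 1.55 to 2.37 for D2HGDH and 0.64 to 1.44 for MCCA. It was 0.08 to 0.86 for ETFQO and -0.06 to 0.72 for MCCB, the 1 measured gene whose direction was not the same throughout, with -0.06 on the 4 brighter arrays. The highest values of ALDH7B4, IVD, MCCA, ETFQO and MCCB came from the values without scaling, where the median over all probe sets tested was 0.51.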

How the data were processed

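The authors hybridised biotinylated cRNA to ATH1 arrays and pooled replicates in Rosetta Resolver with a proprietary ratio model, which was not rerun. The deposited values are linear, background-subtracted probe set intensity, not scaled between arrays, and 13.2% to 17.8% per array were at or below 0. The 6 arrays were quantile normalised (limma 3.58.1 in R 4.3.3), raised to the highest value of 27 Bacillus control probe sets (18.5 units) and put on a log2 scale. Probe sets above this floor on at least 3 arrays, 60.2% of 22746, were tested with lmFit and eBayes (two-sided, group as the only term, Benjamini-Hochberg over 13703). Fits were tested on simulated data.

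Arrays of the same number deviated together from their group means (correlations of 0.291, 0.23 and 0.393 for replicates 1, 2 and 3, other combinations -0.381 to 0.0285). With this check and the numbers in the titles, the numbers were taken to pair the arrays, and a fit with a replicate block was run beside the first.

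Gene names came from the platform annotation, updated through an NCBI table (TAIR10.1). It paired 13513 probe sets with 1 gene and 503 with several, which were not named, and 44 of 166 listed genes had a probe set. The genes and lists were chosen with earlier results of these data known. The 10 genes and every tested gene of their pathways are named, from other lists up to 4 passing genes with the largest change, and 5 genes with the most alike pattern. Other genes (BCAT4, AT5G65780, AT1G50110, AT3G48170, AT3G66658, AT1G74920, AT5G65750, AT5G38710, BZIP53, PYK10, EXPA7 and the neighbours) were named after their values were seen. The sources used here name no genome build for the probes, and neither coordinates nor sequences are printed. The number of arrays limits the precision.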

Additional observations from a re-analysis of the deposited data

How the results depend on the processing

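With spike-in scaling 1869 probe sets passed, 71.9% of them higher, the 7 genes had a median log2 fold change of 2.37 and 4 of them were higher, 2 of the other breakdown genes passed and 0 of the synthesis genes were lower. With no scaling the values were 1400, 73.6%, 2.31, 4, 1 and 0. In the setting used in the text they were 6146, 48.7%, 1.97, 5, 5 and 5. MCCA was the gene lost, as it was with the floor at the 25th percentile and with no filter, where 4 of the 7 genes were higher. With a filter on all 6 arrays, LKR/SDH and D2HGDH dropped out because watered replicate 1 was at the floor, the median over those left was 0.87 and 3 of them were higher. On the 4 brighter arrays, chosen after seeing the data, the median was 1.55. Leaving out 1 array at a time gave a median of 1.57 (without watered replicate 1) to 2.17, 4 to 5 of the 7 genes higher, 4 to 6 other breakdown genes and 4312 to 5647 probe sets in all.

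With the replicate block, 7012 probe sets passed, 50.2% of them higher. Still 5 of the 7 genes were higher, 5 other breakdown genes passed and 5 synthesis genes were lower. Besides the genes given above with a block value, it changed no call of a listed gene. No measured gene of the lists, the tissue markers left aside, reversed a called direction under any alternative, while 37 of their values no longer passed and 15 newly passed. The call for AT4G20930 was also lost with no filter (limma adjusted p = 0.0598) and on the 4 brighter arrays (0.0855), and that for AT3G23940 with no filter (0.0624). The cause of these changes was not tested.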
